A study of Homo sapiens with 12 samples.

Results

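MYC, its paralogue MYCN, the proteins that share their dimer partner MAX, and the long non-coding RNA gene PVT1, which neighbours MYC, were described in 2 human T-ALL (T-cell acute lymphoblastic leukaemia) cell lines, HPB-ALL and KOPTK1. The set holds 10 of the 58288 genes listed, chosen by name and not by their values: MYC, MYCN, MAX, MXD1, MXD3, MXD4, MXI1, MNT, MLX and PVT1. The study silenced SHQ1, an assembly factor of H/ACA small nucleolar ribonucleoproteins, with pLKO.1 lentiviruses that carried an shRNA against SHQ1 or, as the control, one against GFP (shGFP). All cells were infected and given puromycin at 2 μg/mL, with 48 h of culture by the labels. For each line the labels give 3 control and 3 SHQ1 shRNA libraries of rRNA-depleted total RNA, 12 in all. Nothing says that the libraries of a group came from separate cultures, so p-values measure only the spread between these libraries, which may be technical.

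The library columns of the deposited tables are headed by numbers alone. They could be tied to a cell line, but not to an shRNA. The effect of SHQ1 silencing on these genes is therefore not given here, and the comparison made is that of 6 HPB-ALL libraries with 6 KOPTK1 libraries, each set holding libraries of both shRNAs. Libraries are named by their header number, 7 to 12 for HPB-ALL and 1 to 6 for KOPTK1.

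MYC is a basic helix-loop-helix leucine zipper transcription factor that binds DNA as a dimer with MAX, mostly at the E-box CACGTG, and promotes ribosome production, metabolism and growth. MXD1, MXD3, MXD4, MXI1 and MNT also dimerize with MAX and recruit SIN3 corepressors to the same kind of site. MLX is a MAX-like protein that pairs with some MXD proteins, with MNT and with the nutrient-responsive factors MLXIP and MLXIPL. In T-ALL, MYC is a major target of NOTCH1, acting through a distant enhancer that lies beyond PVT1.

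Because MYC and its relatives bind the E-box, it was looked for in the promoters of the genes themselves. RefSeq windows of 300 bases (GRCh38.p14, mostly upstream of the start site) were at hand for 8 of the 10 genes, in 11 windows; MYC and PVT1 had none. CACGTG, which reads the same on both strands, was found in 3 of the 11 windows, and in 7.26% of all 35116 promoter windows. The 3 stretches are shown with the E-box in capitals, 5′ to 3′ on the strand of the gene: MXD4 at chr4:2262330-2262359 (minus strand), MNT at chr17:2401236-2401265 (minus strand) and MLX at chr17:42567038-42567067 (plus strand).
MXD4: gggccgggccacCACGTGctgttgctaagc
MNT: ccctgcccgggcCACGTGtgcgcgcgccgg
MLX: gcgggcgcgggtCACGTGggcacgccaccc
An E2F-like motif (TTTGGCGC, TTTCCCGC, TTTCGCGC or TTTGCCGC, either strand) was found in 1 of the 11 windows, that of MYCN, and in 3.31% of all windows. It is shown because MYCN was the transcription factor gene of the set that differed most between the lines, at chr2:15940363-15940392 on the plus strand, with the first match in capitals; a match on the other strand overlaps it.
MYCN: agcaagtggctTTTGGCGCgaaagccttgg
These matches describe the letters of the reference and say nothing of binding in these cells.

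Library totals ran from 22884785 to 42842791 assigned reads, and the KOPTK1 libraries 4, 5 and 6 were the shallowest. SHQ1, the target of the shRNA, was at 71.3, 72.4, 71.4, 47.5, 46.2 and 49.0 RPKM (reads per kilobase of exon, scaled to the size of the library) in HPB-ALL libraries 7 to 12, and at 46.2, 44.8, 46.9, 42.0, 42.0 and 39.6 RPKM in KOPTK1 libraries 1 to 6. T-lineage markers were present in both lines (CD3D averaged 296 RPKM in HPB-ALL and 304 in KOPTK1), and all 6 myeloid markers and all 5 epithelial and kidney line markers were below 1 RPKM in all 12 libraries. Of 5 erythroid markers, 3 were below 1 RPKM in all libraries. HBA2 was at 6.65 to 9.34 RPKM in HPB-ALL and 1.54 to 5.25 RPKM in KOPTK1, and HBA1 at 1.63 to 2.39 and 1.48 to 2.14 RPKM. TLX3, which is activated by a chromosomal rearrangement in the HPB-ALL line, did not exceed 0.0364 RPKM in any HPB-ALL library, so this marker of the label was absent. The identity of the lines was not tested here, and HPB-ALL and KOPTK1 are used throughout as the names the labels give. The KOPTK1 libraries fell into separate sets: over 9340 genes, the log2 levels of libraries 1, 2 and 3 correlated with the HPB-ALL mean at r = 0.856 to 0.873, and those of libraries 4, 5 and 6 at r = 0.725 to 0.73. The HPB-ALL libraries were split to a smaller degree. Libraries 7, 8 and 9 correlated with the KOPTK1 mean at r = 0.775 to 0.785, and libraries 10, 11 and 12 at r = 0.826 to 0.833. Neither HPB-ALL set was left out as a whole. CD79A, a B-lineage gene at 40.1 to 46.6 RPKM in HPB-ALL, ranged from 5.93 to 24.9 RPKM in KOPTK1. The other B-lineage markers were low (4 of 6 below 1 RPKM in all libraries), and the summed level of the list was 41.4 to 47.3 RPKM in HPB-ALL and 7.49 to 26.4 RPKM in KOPTK1. Of 14 T-lineage markers tested, 4 were higher in HPB-ALL, 7 were higher in KOPTK1 and 3 did not pass the threshold (median log2 difference, HPB-ALL minus KOPTK1, -0.10). Their summed level was 1580 to 1650 RPKM in HPB-ALL and 2360 to 2900 RPKM in KOPTK1, and without TRBC2, a T-cell receptor constant gene, 1360 to 1460 and 1500 to 1590 RPKM. Of 8 thymocyte markers tested, 1 was higher in HPB-ALL (CD1A, 27.3 against 20.9 RPKM) and 6 were higher in KOPTK1. CD8B did not pass the threshold. For comparison with these marker counts, 31.3% of all genes tested were higher in HPB-ALL and 34.1% in KOPTK1. Summed thymocyte markers were at 77.2 to 81.7 RPKM in HPB-ALL and at 166 to 210 RPKM in KOPTK1. In HPB-ALL the largest parts of the sum were CD1B and CD1A (means of 30.1 and 27.3 RPKM), with DNTT at 11.9 RPKM. In KOPTK1 they were CD1B and DNTT (83.9 and 58.0 RPKM), with CD1A at 20.9 RPKM. Of 7 leukaemic transcription factor genes, 4 were below 1 RPKM in all libraries. TAL1 was at 39.4 to 45.5 RPKM in HPB-ALL and 12.5 to 26.8 RPKM in KOPTK1, LMO1 at 2.51 to 3.43 and 0.271 to 1.8 RPKM, and LMO2, in the other direction, at 0.0784 to 0.263 and 0.985 to 2.52 RPKM. Whether the KOPTK1 libraries hold RNA of more than 1 line was not tested. Differences between the lines are therefore also given without libraries 1, 2 and 3 and without libraries 4, 5 and 6, for the genes that differed and for the ratios.

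Between the lines, 6 of the 10 genes differed at an adjusted p under 0.05, 1 of them higher in HPB-ALL (MYCN) and 5 higher in KOPTK1 (MYC, MXD1, MXD4, MXI1 and PVT1). The test was edgeR's quasi-likelihood test with Benjamini-Hochberg adjustment over 24246 genes, of which 65.4% differed, 31.3% higher in HPB-ALL and 34.1% higher in KOPTK1. The share of the set that differed was thus near that of all genes. Without KOPTK1 libraries 1, 2 and 3 the count was 2 higher in HPB-ALL and 4 higher in KOPTK1, and without libraries 4, 5 and 6 it was 1 and 5. In these settings 70.1% and 53.5% of all genes tested differed. The libraries of the lines did not overlap for 5 of the 10 genes, against 45.3% of all genes tested. The median log2 difference, HPB-ALL minus KOPTK1, was -0.10 over the 10 genes and -0.03 over all genes tested. In absolute size the medians were 0.22 and 0.33.

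**Figure D1:**
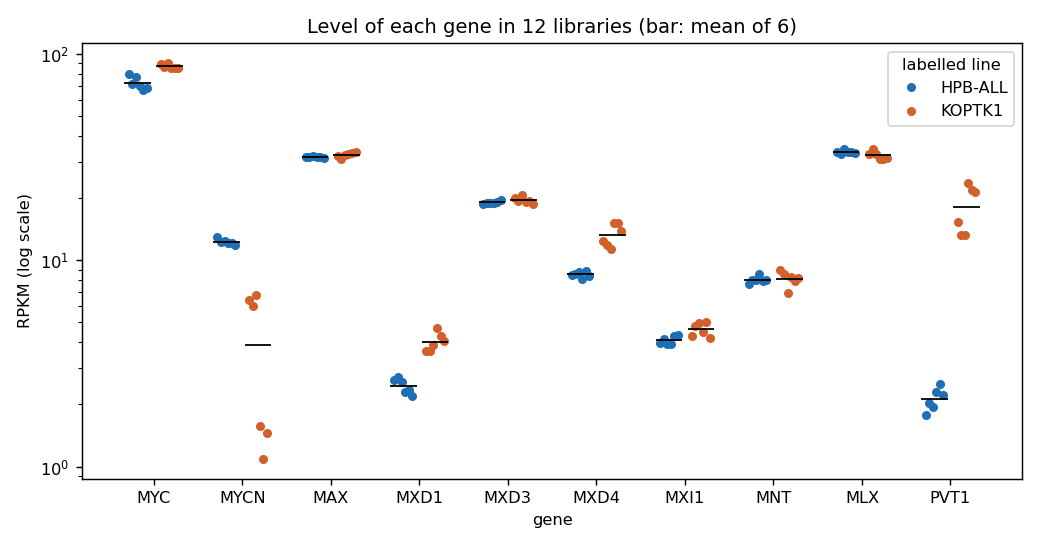
Level of each of the 10 genes in RPKM (log axis) in the 6 HPB-ALL libraries (blue) and the 6 KOPTK1 libraries (orange); each point is a library and each bar the mean of 6. The lines are apart for MYC, MYCN, MXD1, MXD4 and PVT1, and the KOPTK1 points of MYCN lie in separate sets, at 1.09 to 1.58 and at 6.01 to 6.77 RPKM.

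MYC was the most abundant transcript of the set in both lines. Its level was 66.7 to 79.5 RPKM in HPB-ALL (median 70.7) and 85.0 to 90.2 RPKM in KOPTK1 (median 86.3), from 5782 to 9880 reads per library. HPB-ALL libraries 7, 8 and 9 held 79.5, 71.3 and 77.4 RPKM, and libraries 10, 11 and 12 held 70.0, 66.7 and 68.0 RPKM. Every KOPTK1 library was above every HPB-ALL library. The mean was 72.1 ± 5.16 (SD, n = 6) in HPB-ALL and 87.2 ± 2.12 (SD, n = 6) in KOPTK1, a level 1.21-fold higher in KOPTK1. The log2 difference, HPB-ALL minus KOPTK1, was -0.27 (95% interval -0.36 to -0.18, adjusted p = 8.4e-05 by edgeR). An exact permutation test of the mean log2 CPM over the 12 libraries (two-sided) gave p = 0.0022, the smallest that 924 splits allow. That test takes the 12 libraries as interchangeable, although libraries within a line lay in sets, so its p-value may be too small. The log2 difference was -0.21 without KOPTK1 libraries 1, 2 and 3 and -0.29 without libraries 4, 5 and 6. The CV of MYC (SD over mean) was 7.15% in HPB-ALL, where 49.3% of genes at or above 1 RPKM varied more, and 2.43% in KOPTK1, where 97.9% did. These shares were not matched on level, and genes with fewer reads vary more from counting alone. The MYC gene lies at chr8:127735434-127741434 on the plus strand (GRCh38) and shares no exon base with another gene.

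MYCN, a paralogue best known from neuroblastoma, behaved in the opposite direction. HPB-ALL libraries 7 to 12 held 13.0, 12.3, 12.4, 12.1, 12.1 and 11.9 RPKM. KOPTK1 libraries 1, 2 and 3 held 6.39, 6.01 and 6.77 RPKM, and libraries 4, 5 and 6 held 1.58, 1.09 and 1.46 RPKM. All HPB-ALL libraries were thus above all KOPTK1 libraries, and in KOPTK1 the highest library had 6.22 times the lowest. The level was 3.11-fold higher in HPB-ALL, a log2 difference of 1.64 (95% interval 0.81 to 2.46, edgeR adjusted p = 0.0019). The size of this value depended on which KOPTK1 libraries were used: it was 3.20 without libraries 1, 2 and 3 and 0.95 without libraries 4, 5 and 6. It passed the threshold in both cases (adjusted p = 5.5e-16 and 2.2e-10 by edgeR). Each of these fits keeps a single set of KOPTK1 libraries, so these p-values leave out the spread between the sets. They are not stronger evidence than the value over all libraries. Only 1.07% of genes at or above 1 RPKM varied more than MYCN among the KOPTK1 libraries. MYCNOS, an antisense neighbour of MYCN that was chosen after its values were seen, was at 1.17 to 1.42 RPKM in HPB-ALL and at 0.0335 to 0.641 RPKM in KOPTK1, where as few as 2 reads were counted.

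**Figure D2:**
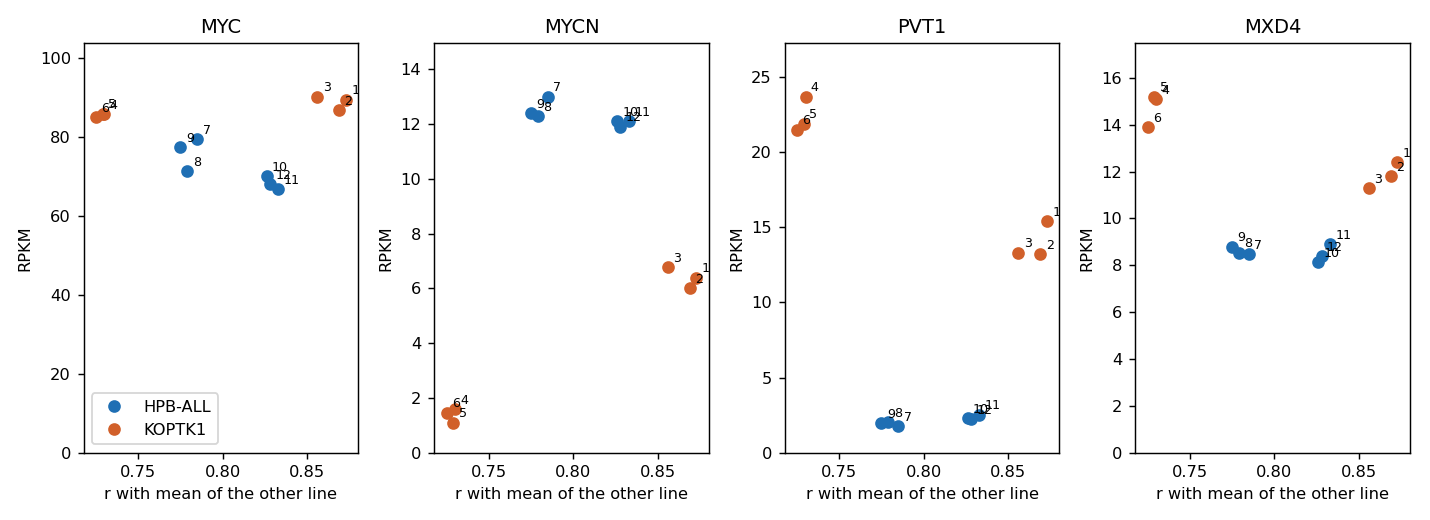
Level in RPKM of MYC, MYCN, PVT1 and MXD4 (vertical axes, from 0) against the Pearson correlation of each library with the mean of the other line (horizontal axes, 9340 genes); each point is a library, labelled with its header number. KOPTK1 libraries 1, 2 and 3, at r = 0.856 to 0.873, lie nearer the HPB-ALL level of MYCN, PVT1 and MXD4 than libraries 4, 5 and 6 do, but not that of MYC.

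MAX, the obligate partner of MYC, was at 31.3 to 32.0 RPKM in HPB-ALL (median 31.6) and at 30.9 to 33.5 RPKM in KOPTK1 (median 32.5). The ranges overlapped. The log2 difference was -0.03 with a 95% interval of -0.09 to 0.02 (edgeR adjusted p = 0.26). In HPB-ALL its CV of 0.672% was the lowest of the set, whose median CV there was 3.4% against 7.04% for all genes at or above 1 RPKM. Counting noise is smaller for genes with more reads, and MAX had 4799 to 5581 reads per HPB-ALL library. The comparison was not matched on level, so it does not show that these genes are unusually stable.

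Of the 5 MAX-binding repressor genes, MXD1, MXD4 and MXI1 were higher in KOPTK1. MXD1, linked to differentiation, was at 2.19 to 2.73 RPKM in HPB-ALL (median 2.46) and at 3.65 to 4.70 RPKM in KOPTK1 (median 3.97). The lines did not overlap, and the level was 1.64-fold higher in KOPTK1, a log2 difference of -0.71 (95% interval -0.88 to -0.55, edgeR adjusted p = 3.2e-06). It was -0.79 without KOPTK1 libraries 1, 2 and 3 and -0.59 without libraries 4, 5 and 6. MXD4 was at 8.14 to 8.89 RPKM in HPB-ALL (median 8.50), and at 12.4, 11.8, 11.3, 15.1, 15.2 and 13.9 RPKM in KOPTK1 libraries 1 to 6. Its level was 1.55-fold higher in KOPTK1 (log2 difference -0.64, 95% interval -0.79 to -0.48, edgeR adjusted p = 4.8e-06). The log2 difference of MXD4 was -0.76 without KOPTK1 libraries 1, 2 and 3 and -0.46 without libraries 4, 5 and 6.

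MXI1 was at 3.91 to 4.35 RPKM in HPB-ALL (median 4.07) and at 4.21 to 5.0 RPKM in KOPTK1 (median 4.63), and these ranges overlapped. Its log2 difference of -0.17 (95% interval -0.29 to -0.04) passed the threshold (edgeR adjusted p = 0.02). It no longer did so without HPB-ALL library 7 (-0.15, edgeR adjusted p = 0.056), without KOPTK1 library 3 (-0.13, adjusted p = 0.067) or without KOPTK1 libraries 1, 2 and 3 (-0.12, adjusted p = 0.1), with no filter on low values (-0.10, adjusted p = 0.22), or when a difference of 1.5-fold was also required. It was -0.18 without libraries 4, 5 and 6 (edgeR adjusted p = 0.021).

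MXD3, a family member linked to proliferating cells, was the most abundant of these repressor genes. It was at 18.8 to 19.5 RPKM in HPB-ALL and at 18.8 to 20.7 RPKM in KOPTK1, a log2 difference of -0.04 (95% interval -0.10 to 0.03, edgeR adjusted p = 0.27). MNT was at 7.69 to 8.58 RPKM in HPB-ALL and at 6.97 to 8.93 RPKM in KOPTK1, a log2 difference of -0.02 (95% interval -0.13 to 0.10, edgeR adjusted p = 0.76). MLX was at 32.7 to 34.6 RPKM in HPB-ALL and at 30.9 to 34.5 RPKM in KOPTK1, a log2 difference of 0.05 (95% interval -0.02 to 0.12, edgeR adjusted p = 0.16). Without KOPTK1 libraries 1, 2 and 3, MLX was called higher in HPB-ALL (0.14, edgeR adjusted p = 0.00061). Exons of MXD3, MNT and MLX overlap a gene on the opposite strand over 22.2%, 21.3% and 29.7% of their bases, and reads there may belong to either gene if strand was not used in counting.

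**Figure D3:**
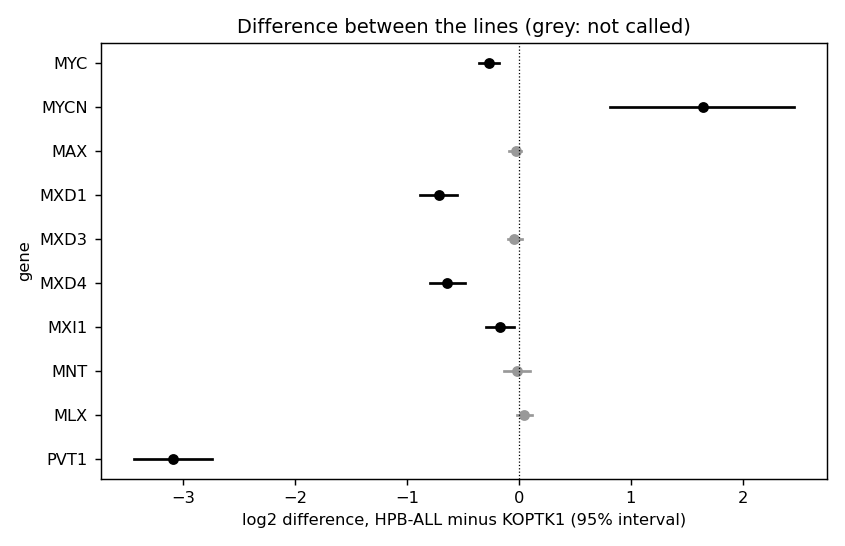
Log2 difference in level, HPB-ALL minus KOPTK1 (horizontal axis), for each gene, with its 95% interval from the edgeR fit of 6 against 6 libraries; black marks the 6 genes past an adjusted p of 0.05 and grey the other 4. PVT1 (-3.09) and MYCN (1.64) lie farthest from 0, on opposite sides.

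PVT1 showed the largest difference of the set. The gene, at chr8:127794557-128101253 on the plus strand (GRCh38), lies downstream of MYC, and some of its promoter and enhancer elements are known to compete or cooperate with MYC. HPB-ALL libraries 7 to 12 held 1.77, 2.03, 1.95, 2.30, 2.52 and 2.23 RPKM. KOPTK1 libraries 1 to 6 held 15.4, 13.2, 13.3, 23.7, 21.9 and 21.5 RPKM. Every KOPTK1 library was far above every HPB-ALL library, and the mean was 8.51-fold higher in KOPTK1 (log2 difference -3.09, 95% interval -3.44 to -2.74, edgeR adjusted p = 1.8e-08). By absolute size it ranked 450 among the 24246 genes tested. The log2 difference was -3.36 without KOPTK1 libraries 1, 2 and 3 and -2.71 without libraries 4, 5 and 6. Other genes share 9.5% of the exon bases of PVT1.

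The order of the levels per length was similar in both lines at the top and differed at the bottom. In HPB-ALL it was MYC, MLX, MAX, MXD3, MYCN, MXD4, MNT, MXI1, MXD1 and PVT1, and the ranges of MXD4 and MNT, and of MXD1 and PVT1, overlapped. In KOPTK1 it was MYC, MAX, MLX, MXD3, PVT1, MXD4, MNT, MXI1, MXD1 and MYCN. There the ranges overlapped between MAX and MLX, MXD3 and PVT1, PVT1 and MXD4, MXI1 and MXD1, and MXD1 and MYCN.

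Ratios within a library do not depend on how libraries are scaled to each other. MYC made up 84.6% to 86.2% of the summed MYC and MYCN level in HPB-ALL (median 85.3%) and 93.0% to 98.7% in KOPTK1 (median 95.9%). MYC stood at 2.11 to 2.51 times MAX in HPB-ALL and at 2.54 to 2.81 times MAX in KOPTK1. The ratio of MYC to PVT1 was 26.4 to 45.0 in HPB-ALL and 3.62 to 6.80 in KOPTK1. Each of these 3 ratios separated the lines without overlap (exact permutation test, two-sided, p = 0.0022 each, adjusted p = 0.0029 over 4 ratios); the share was tested as the log2 ratio of MYC to MYCN, which was -2.34 in HPB-ALL relative to KOPTK1. That log2 difference was -3.43 without KOPTK1 libraries 1, 2 and 3 and -1.25 without libraries 4, 5 and 6. For MYC to PVT1 it was 2.78 over all libraries, 3.15 without the first set and 2.42 without the second. For MYC to MAX it was -0.24, -0.19 and -0.30. The ratio of MYC to the summed MXD1, MXD3, MXD4, MXI1 and MNT levels was 1.56 to 1.91 in HPB-ALL and 1.66 to 1.89 in KOPTK1, and the difference of -0.04 on the log2 scale was within the spread (exact permutation p = 0.45, adjusted p = 0.45). These exact tests take the libraries as interchangeable, although libraries within a line lay in sets, so small p-values among them may be too small.

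**Figure D4:**
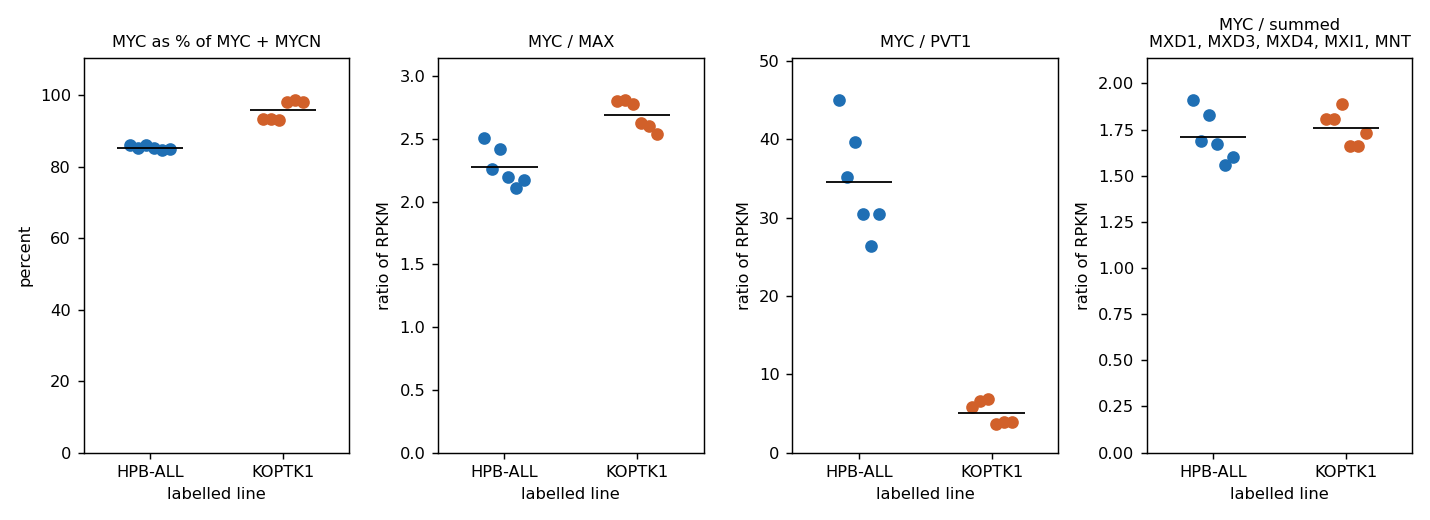
Ratios of levels within a library (vertical axes, from 0) in the 6 HPB-ALL and 6 KOPTK1 libraries; each point is a library and each bar the mean of 6. The lines are apart for MYC as a percent of MYC and MYCN, for MYC to MAX and for MYC to PVT1 (medians 32.8 and 4.87), and overlap for MYC to the summed repressor genes.

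Across the 12 libraries, with each line centred on its own mean, the protein-coding genes whose log2 level was most like that of MYC were CARS2 (r = 0.94), HLA-C (r = 0.93) and TRIM14 (r = 0.92), and the least like was CBX1 (r = -0.93), among 6064 genes at or above 10 RPKM in both lines. SHQ1 had r = 0.84 with MYC (0.83 in HPB-ALL alone and 0.93 in KOPTK1 alone), and PVT1 had r = -0.60 (-0.93 and -0.77). MYCN had r = 0.30, but 0.86 in HPB-ALL alone and 0.84 in KOPTK1 alone. For MAX, MXD1, MXD3, MXD4 and MXI1 the sign of r differed between the lines. Libraries within a line lay in sets, so r may reflect a contrast of sets and does not show a graded relation. These values are a description: the 12 points are libraries of only 2 lines, and libraries of 1 line share its shRNA groups and its scaling.

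Other genes of the network and its targets were read from the same fit. Of the extended network genes, 4 of 6 passed the filter on low values. MLXIP was higher in HPB-ALL (22.5 against 19.3 RPKM), and the corepressor SIN3A (18.3 against 25.3 RPKM) and the MAX-binding MGA (22.8 against 31.0 RPKM) were higher in KOPTK1. SIN3B did not pass the threshold (log2 difference -0.06, edgeR adjusted p = 0.28), and MYCL and MLXIPL stayed below the filter. The median log2 difference of the 4 tested genes was -0.25, against -0.03 over all genes.

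Among 18 cofactors and regulators of MYC protein turnover, 8 were higher in HPB-ALL and 10 in KOPTK1, so that all 18 were called against 65.4% of all genes tested (median log2 difference -0.13, against -0.03 over all genes). The share called depended on level: it was 77.4% among genes that averaged 10 RPKM or more in either line. The counts of cofactors were the same without either set of KOPTK1 libraries. Of all genes, 70.1% were called without libraries 1, 2 and 3, and 53.5% without libraries 4, 5 and 6. RUVBL2, an ATPase of chromatin remodelling complexes, was higher in HPB-ALL by 0.66 on the log2 scale (edgeR adjusted p = 0.00041). FBXW7, the ubiquitin ligase subunit that marks MYC for degradation, was at 11.4 RPKM in HPB-ALL and 17.4 RPKM in KOPTK1 (log2 difference -0.61, edgeR adjusted p = 5.9e-07). The kinase gene PIM1 was at 2.68 and 5.04 RPKM (log2 difference -0.91, edgeR adjusted p = 9.8e-05).

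Of 30 textbook MYC target genes, 20 were higher in HPB-ALL, 6 were higher in KOPTK1 and 4 did not pass the threshold (median log2 difference 0.28). Over all genes tested, 31.3% were higher in HPB-ALL and 34.1% in KOPTK1, with a median of -0.03. Among genes that averaged 10 RPKM or more in either line, 77.4% were called, and 51.3% of those called were higher in HPB-ALL. The counts of targets were 22, 5 and 3 without KOPTK1 libraries 1, 2 and 3 (median 0.43) and 20, 5 and 5 without libraries 4, 5 and 6 (median 0.21). For all genes the first setting gave 8674 higher in HPB-ALL and 8542 higher in KOPTK1, of 24575 (median -0.02). The second gave 6287 and 6517, of 23920 (median -0.01). TERT, the telomerase reverse transcriptase, was at 3.56 and 1.74 RPKM (log2 difference 1.01, edgeR adjusted p = 0.0026). CAD, of pyrimidine synthesis, was at 56.7 RPKM in HPB-ALL and 36.9 RPKM in KOPTK1. The G1 cyclin gene CCND2 was the target most strongly higher in KOPTK1, at 1.68 against 6.71 RPKM (log2 difference -2.0, edgeR adjusted p = 4.1e-08).

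For the genes around MYC on its chromosome arm, 13 symbols were looked for, of which FAM49B and CYRIB name the same gene. Of these symbols, 11 were matched, and 4 genes passed the filter. ASAP1, CYRIB and NSMCE2 were higher in KOPTK1 (log2 differences of -0.75, -0.38 and -0.34), and SQLE, of cholesterol synthesis, was higher in HPB-ALL (0.26). All 4 were thus called, against 65.4% of all genes tested and 77.4% of genes that averaged 10 RPKM or more in either line. Without KOPTK1 libraries 1, 2 and 3, 1 was higher in HPB-ALL and 4 in KOPTK1, of 5 tested. Without libraries 4, 5 and 6 the counts were 1 and 3, of 4. So few genes do not show a trait of the region. PCAT1, a long non-coding RNA gene below the filter, was at 0.031 to 0.148 RPKM in HPB-ALL and at 0.52 to 1.14 RPKM in KOPTK1.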

How the data were processed

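The authors deposited 1 table per cell line with read counts per gene. The submitters' processing notes name Trimmomatic 0.36, STAR 2.5.4b, Picard 2.18.7, featureCounts 1.6.2, edgeR 3.22.3 and the build hg38. Although the tables are named for RPKM, the deposited values are estimated counts that include fractions of a read, and they were rounded before testing. The tables also hold the authors' log2 fold changes, average log2 CPM, F statistics, p-values and FDR, which were not used. Symbols were matched to 95.8% of identifiers. Testing was limited to genes whose RPKM averaged 1 or more in either line and used edgeR 4.0.16 (TMM scaling, quasi-likelihood test, R 4.3.3). An adjusted p under 0.05 was called. The standard error was implied by the F statistic, and intervals used the fitted degrees of freedom of each gene. RPKM was computed on TMM-scaled library sizes. Simulated libraries for the comparison of the lines (24246 genes) held 200 genes with a log2 change of 1. The test found 91.5% of them, and 7.58% of its calls were false. The simulation gave every gene the same dispersion, 0.01, and had no sets of libraries within a line. Its rates hold for that setting only. They do not describe the test on the present libraries, which lay in sets and where 65.4% of genes differed. No pair of libraries agreed within sampling noise (chi-square per degree of freedom of at least 1.75). Alternatives were DESeq2 1.42.0, limma 3.58.1 with pseudocounts of 0.1 and 1 RPKM, upper quartile scaling, other filters, a 1.5-fold minimum and each library left out. Leaving out KOPTK1 libraries 1, 2 and 3, or 4, 5 and 6, was chosen after seeing the data. The p-values of those fits leave out the spread between the KOPTK1 sets. The members and lists were chosen with earlier results of these data known. Named were all members, SHQ1, list genes past the threshold with the largest differences (at most 3 per direction), and the genes most and least like MYC. Markers, list genes below the filter and MYCNOS were named outside that rule.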

Additional observations from a re-analysis of the deposited data

Results flagged for a closer look

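MNT in HPB-ALL library 10 was at 8.58 RPKM, apart from the next library at 8.01 RPKM by 0.643 of the range of the 6 libraries, above the critical value of 0.625 (Dixon). This was 1 of 28 sets of 6 values examined, and chance flags about 1 in 20 such sets.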

How the results depend on the processing

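The count of genes that differed was 7196 with a mean RPKM of at least 10 (of 9293 tested) and 6403 with a minimum of 1.5-fold. It was 14915 to 16184 when 1 library was left out, and the count among the 10 genes was then 5 to 7. With the 1.5-fold minimum MYC (-0.27) and MXI1 (-0.17) were no longer called, because their differences are smaller. When 1 library was left out, the log2 difference of MYC was -0.29 to -0.25, that of MYC to MYCN -2.57 to -2.06, that of MYC to MAX -0.27 to -0.22, that of MYC to PVT1 2.69 to 2.88 and that of MYC to the summed repressor genes -0.07 to -0.02. The last became 0.02 without KOPTK1 libraries 1, 2 and 3. Genes not called changed sign: MNT (-0.05 to 0.01 when 1 library was left out) to 0.00 with DESeq2, 0.05 with no filter, 0.00 without HPB-ALL library 7, 0.01 without KOPTK1 library 1 and 0.02 without KOPTK1 libraries 1, 2 and 3; MAX to 0.04 with no filter and 0.00 without KOPTK1 libraries 4, 5 and 6; MXD3 to 0.03 with no filter and 0.03 without KOPTK1 libraries 1, 2 and 3. Some genes gained a call: MLX with DESeq2 (0.08, adjusted p = 0.042), no filter (0.12, edgeR adjusted p = 0.011), without KOPTK1 library 2 (0.07, edgeR adjusted p = 0.042) and without KOPTK1 libraries 1, 2 and 3; MXD3 with upper quartile scaling (-0.08, edgeR adjusted p = 0.023) and a mean RPKM of at least 10 (-0.07, edgeR adjusted p = 0.025); and MAX with the latter (-0.07, edgeR adjusted p = 0.044). The cause was not tested. MYCN, MXD1, MXD4 and PVT1 kept their direction and call in every alternative that tested them. No paired analysis was possible because the library columns carry no shRNA group or replicate number.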
